A study of Oryzias latipes with 60 samples.

Results

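Fish carrying the xmrk transgene were compared with wild-type fish after both had spent 5 days in petri dishes with saline, the vehicle of cisplatin. The comparison took the 10 libraries labelled as saline controls out of 60 in the series. They were 5 xmrk transgenic fish (14 to 18) and 5 wild-type fish (33 to 37), all medaka (Oryzias latipes), 3 to 4 weeks old and about 10 mm long. Poly-A RNA of whole fish was sequenced, and a library is treated below as a single fish, although no label says so outright. The remaining fish were untreated in ordinary housing, or held in dishes with DMSO, 70 µM cisplatin or 20 nM trametinib. They are used below as other fish of the same genotypes, as conditions compared with saline, in wider fits and in scaling the levels. Transgenic and wild-type fish had the same saline treatment, time in a dish and age, and the sources used here name neither the promoter that drives the transgene, nor the fish strain, nor the sex of a fish. Which fish shared a dish is not given, so an effect of the dish cannot be told apart from the genotype. The p-values below rest on fish-to-fish variation within a group, with fish treated as independent.

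Xmrk is a mutant copy of the epidermal growth factor receptor from Xiphophorus fishes. The receptor is active without ligand, and it signals through the RAS and MAP kinase cascade and through STAT proteins. In Xiphophorus hybrids it causes melanoma, a tumour of pigment cells, and medaka carrying it under a pigment cell promoter are used as a melanoma model. In whole-fish RNA the pigment cells are a small part of the tissue. A gene that is lower in such a bulk sample may reflect fewer cells of a type or less RNA per cell, and these cannot be told apart here.

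The deposited table names its 20459 genes by Ensembl identifiers only, and 0 of them matched the reference table at hand. Genes therefore appear under their identifiers without a function, and the reads of xmrk itself, the check of the genotype labels, were not looked up. For the same reason lists of pigment cell, MAP kinase, proliferation and tissue marker genes could not be counted. Levels are in CPM, counts relative to the total of the library, scaled with TMM factors that correct for library composition and were computed over all 60 libraries. A gene was called when its p from the quasi-likelihood F test of edgeR, adjusted by Benjamini and Hochberg's method over all genes tested, was under 0.05.

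The 10 libraries held 34788594 to 67018564 counts, and 9 of them resembled each other in composition. Transgenic fish 17 stood apart. Its TMM factor was 0.232, against 0.857 to 1.17 in the other 4 transgenic fish and 0.992 to 1.13 in the wild-type fish. Its 200 most abundant genes took 68.3% of its counts, while the 200 most abundant genes of any of the other 9 fish took 39.9% to 50.3%. The 10 most abundant genes took 14.6% in fish 17, which was close to the 14.4% of fish 16. In fish 17, 17788 genes were detected, and in the others 19253 to 19387. Pearson's r of log2 CPM across genes between fish 17 and another saline fish ran from 0.616 to 0.797, the highest being with fish 16, while among the other 9 fish no pair fell below 0.861 (genes are not independent replicates). Between genotypes, the total count, the genes detected, the TMM factor and the share of the 10 most abundant genes showed no difference beyond the spread between fish, with or without fish 17 (two-sided exact permutation tests, p = 0.246 to 0.960 in 8 tests, adjusted p = 0.952 to 0.960; the smallest p that 5 against 5 fish allow is 0.00794). The counts and named genes of the comparison are therefore given with and without fish 17.

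**Figure D1:**
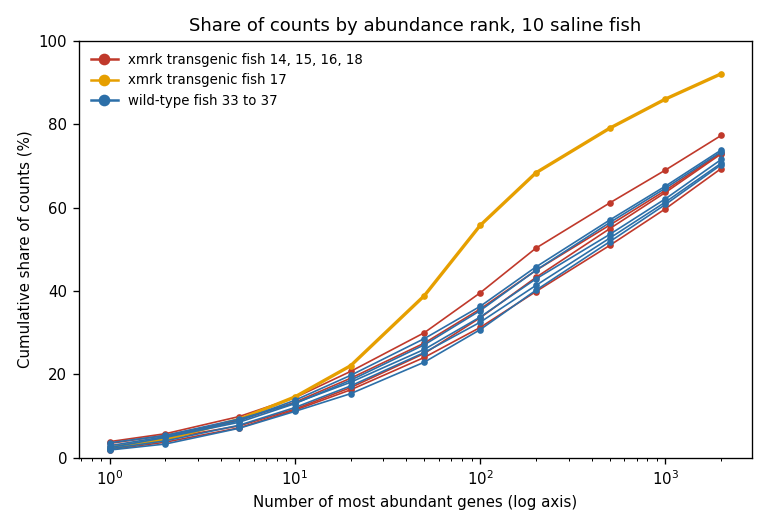
Cumulative share of the counts (%, linear axis from 0) taken by the most abundant genes (number of genes, log axis) in each of the 10 saline fish; each line is 1 fish. The line of transgenic fish 17 leaves the others beyond about the 10 most abundant genes and reaches 68.3% at 200 genes, where the other 9 fish lie between 39.9% and 50.3%.

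With all 10 fish, 3 of 18399 genes were called (0.0163%), and all 3 were lower in transgenic fish. ENSORLG00000009880 stood at 1.11, 1.29, 1.39, 0.678 and 1.14 CPM in transgenic fish 14 to 18 and at 28.1, 62.7, 17.8, 15.8 and 33.1 CPM in wild-type fish 33 to 37. Among these saline fish, every transgenic fish lay more than 10-fold below every wild-type fish, and fish 17 was no exception. The means were 1.12 CPM ± 0.274 (SD, n = 5) and 31.5 CPM ± 18.8 (SD, n = 5), and edgeR gave a log2 fold change of -4.78 (SE 0.44) with an adjusted p of 0.00681. Outside saline the wild-type fish were split. Untreated wild-type fish 70, 71 and 72 held 0.846, 0.670 and 1.498 CPM. Wild-type fish 38 held 1.23 CPM under cisplatin, and fish 50 and 52 held 1.11 and 2.82 CPM under trametinib. The remaining wild-type fish there held 13.5 to 36.04 CPM. The difference was called in DMSO, under cisplatin and under trametinib. In untreated fish it was not called (log2 fold change -2.85, adjusted p = 0.128 by edgeR).

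ENSORLG00000002401 stood at 3.38, 2.44, 3.83, 1.81 and 3.75 CPM in the transgenic fish and at 15.6, 10.7, 14.3, 15.5 and 17.6 CPM in the wild-type fish. The groups did not overlap for any of the 3 genes, which was also so for 4.2% of all genes tested in the higher and 5.57% in the lower direction. The log2 fold change of ENSORLG00000002401 was -2.26 (SE 0.26, adjusted p = 0.0205 by edgeR). In DMSO, wild-type fish 43 and 44 held 3.74 and 2.94 CPM of it, within the range of the transgenic saline fish. Wild-type DMSO fish 45 to 47 held 10.0, 18.7 and 18.3 CPM. Wild-type fish 41 held 3.77 CPM under cisplatin (group median 11.2). ENSORLG00000019860 was detected in the wild-type fish at 32, 24, 32, 37 and 15 counts, and in the transgenic fish only in fish 18, with 1 count. At these depths the wild-type level was 119 times the transgenic level, with a 95% exact binomial interval of 21.0 to 4728 that covers counting error only (fitted log2 fold change -6.26, adjusted p = 0.0205 by edgeR). It was the least abundant of the 3, at 0.499 CPM ± 0.153 (SD, n = 5) in wild-type saline fish. Outside saline, wild-type fish 70 and 71 (untreated), 47 (DMSO) and 39 (cisplatin) had 0 counts of it. The remaining wild-type fish there had 1 to 29 counts.

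No gene was called higher in transgenic fish by edgeR, although 2617 genes were higher at an unadjusted p under 0.05, and 1141 lower. DESeq2 on the same 10 libraries called 187 higher and 196 lower, and limma-voom 0 and 8. The count also turned on which groups shared the edgeR fit: with the cisplatin groups it called 21 higher and 31 lower, with all 10 groups 3190 higher and 549 lower, and with library totals in place of TMM factors 1 higher and 4 lower. Leaving out 1 of the other 9 fish left 0 to 3 calls. ENSORLG00000002401 passed in none of these 9 fits (adjusted p = 0.0599 to 0.123). ENSORLG00000009880 failed without transgenic fish 14, 16 or 18 (0.0567 to 0.0602). ENSORLG00000019860 passed without wild-type fish 37 and in no other of the 9 (0.0660 to 0.211). Without fish 17 all 3 genes were called. In the same order, log2 fold changes were -2.14, -4.67 and -6.27 (adjusted p = 0.00134, 0.00180 and 0.00933 by edgeR). ENSORLG00000002401 and ENSORLG00000009880 then stayed called in all 9 fits that left out 1 more fish.

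Without fish 17 the biological coefficient of variation fell from 0.529 to 0.332, and 182 of 18497 genes were called (0.984%). In transgenic fish 104 of them were higher (0.562%) and 78 lower (0.422%). This balance shifted to 10 higher and 37 lower with the cisplatin groups in the fit and to 45 and 61 with all groups in it. DESeq2 called 1956 genes, limma-voom with sample quality weights 2125 and limma-voom without them 209. The higher genes had a median log2 fold change of 1.01 (quartiles 0.79 and 1.42), 52 of them at least 2-fold and 9 at least 4-fold. The lower genes moved further, with a median of -1.50 (quartiles -2.41 and -1.04), 62 of them at least 2-fold and 24 at least 4-fold. Over all genes tested the median absolute log2 change was 0.29. The share called varied little with abundance, from 0.9% of the 2221 genes above an average log2 CPM of 6 to 1.25% of the 1285 genes at or below 0. Among the called genes with average log2 CPM of 3 to 6, 70 were higher and 26 lower, and among those at or below 0, 4 were higher and 12 lower. For all 104 and all 78 genes the 4 transgenic fish lay entirely on one side of the 5 wild-type fish, which was also so, in the higher and the lower direction, for 5.75% and 6.48% of all genes tested. The number of calls rested on single fish: 9 without transgenic fish 18, 15 without wild-type fish 33, 37 without fish 36, 58 without fish 35, 66 without fish 34, 98 without transgenic fish 16, 117 without fish 15 and 625 without wild-type fish 37. All 182 genes kept their sign in the 9 fits that left out 1 more fish, but 2 of the higher and 6 of the lower genes stayed called in all 9.

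**Figure D2:**
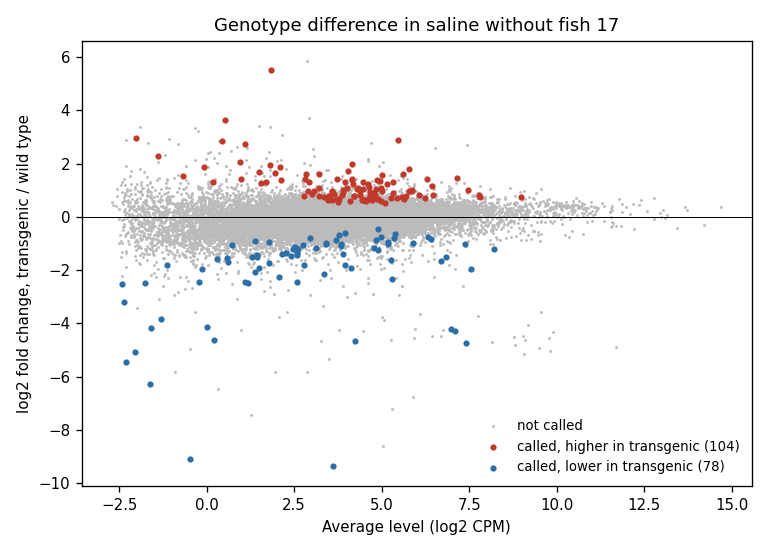
Log2 fold change between transgenic and wild-type saline fish, without fish 17, against the average level (log2 CPM), with 1 point for each of the 18497 genes tested. The 104 genes called higher (red) cluster at log2 changes near 1, the 78 called lower (blue) reach -9.36, and several abundant genes near -4 to -5 were not called (grey).

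Among the called genes of sufficient level, those of largest change in each direction are described here. ENSORLG00000019887 was the largest fall. It had 0, 0, 7 and 0 counts in transgenic fish 14, 15, 16 and 18, and stood at 18.0, 8.95, 19.4, 18.6 and 40.4 CPM in the wild-type fish. The fitted log2 fold change was -9.36 (SE 0.87, adjusted p = 0.00269 by edgeR), and the ratio of the pooled levels was 726, with a 95% exact binomial interval of 352 to 1806 that covers counting error only, the 7 transgenic counts all being from fish 16. In fish 17 it had 4 counts, so that transgenic fish were low throughout, yet with fish 17 in the fit the adjusted p was 0.0531. It remained called under all 18 alternatives tried for the fit without fish 17. Some wild-type fish outside saline were also low. Wild-type fish 43 and 44 in DMSO had 2 and 4 counts of the gene, and fish 41 under cisplatin held 0.487 CPM. The remaining wild-type fish outside saline held 7.599 to 49.18 CPM, and no transgenic fish there exceeded 0.443 CPM.

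ENSORLG00000010054 stood at 8.33, 9.30, 13.4 and 11.4 CPM in transgenic fish 14, 15, 16 and 18 whereas the wild-type fish held 249, 296, 106, 269 and 494 CPM. The fall of -4.74 on the log2 scale (SE 0.42) had an adjusted p of 0.00134 by edgeR. Fish 17 was the exception, at 889 CPM, above every wild-type fish. Its place above the wild-type range rests on its low TMM factor. It had 7865 counts of the gene in a total of 38079639. Wild-type fish 35 had 6129 in 56392079, and fish 37 had 28808 in 52922517. Relative to library totals alone, fish 17 thus lay within the wild-type range. It was still far above the other 4 transgenic fish, which had 557, 546, 771 and 578 counts in larger totals. In DMSO, transgenic fish 53 to 57 held 117, 9.36, 10.7, 10.4 and 156 CPM, and wild-type fish 262 to 736 CPM. With fish 17 in the fit the log2 fold change was -0.59 (adjusted p = 0.791 by edgeR). This fall therefore describes 4 of the 5 transgenic fish.

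ENSORLG00000007187 was higher, at 97.1, 67.4, 74.0 and 88.9 CPM in transgenic fish 14, 15, 16 and 18 against 8.77, 10.0, 11.4, 15.9 and 9.05 CPM in wild-type fish. The log2 fold change was 2.89 (SE 0.20) and its adjusted p, 0.000458 by edgeR, was the smallest of the comparison. Fish 17 was higher still, at 645 CPM. It had 5713 counts in a total of 38079639, and fish 14 had 6494 in 57271780. The size of this gap thus rests in part on the low TMM factor of fish 17. With fish 17 in the fit the log2 fold change was 4.15 with an adjusted p of 0.134 by edgeR. The call was also lost when the cisplatin groups shared the fit (adjusted p = 0.125) and held in the 17 other alternatives. ENSORLG00000008290 had the largest rise and the widest spread, at 5.24, 0.255, 13.9 and 10.7 CPM in the same transgenic fish against 0.0852 to 0.223 CPM in wild-type fish. Transgenic fish 15 lay just above the highest wild-type fish, and the log2 fold change was 5.53 (SE 0.92, adjusted p = 0.0316 by edgeR). Leaving out any 1 of transgenic fish 14, 16 or 18 or wild-type fish 33 to 36 ended this call (adjusted p = 0.0506 to 0.102). Fish 17 held 3.84 CPM, above every wild-type fish, but with it in the fit the gene was not called (log2 fold change 5.38, adjusted p = 0.122). It was not called by limma-voom (0.165), with sample quality weights (0.134), with the cisplatin groups in the fit (0.241) or with all 10 groups (0.0548) either, and passed in 6 of 17 alternatives.

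**Figure D3:**
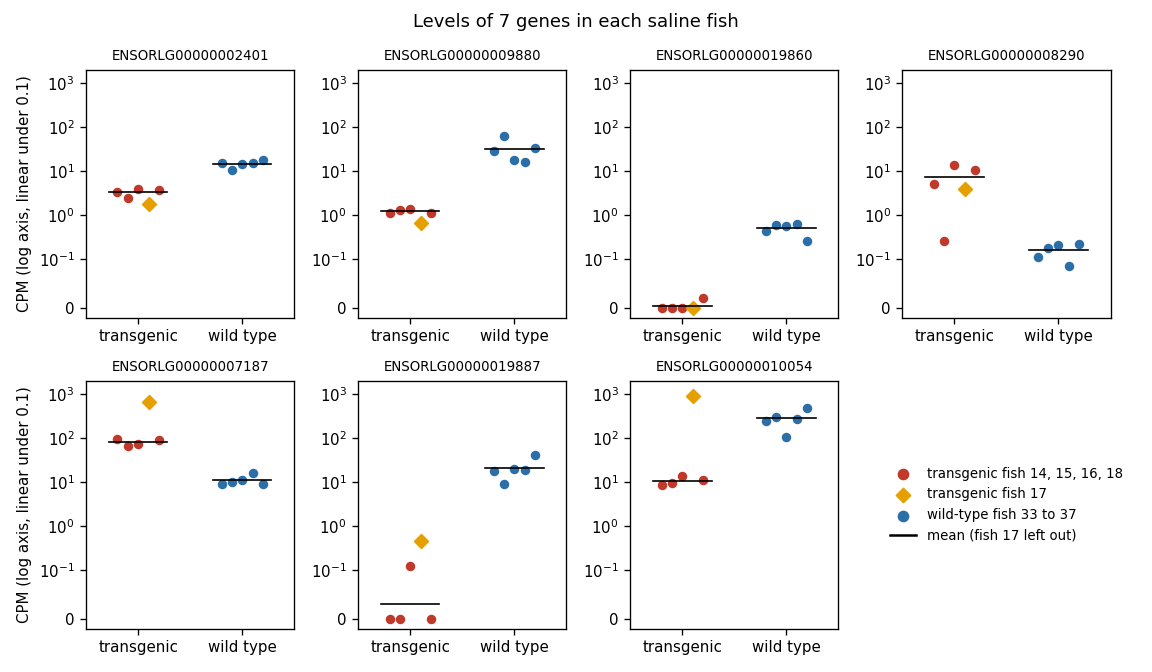
Levels of the 7 genes in CPM (log axis, linear under 0.1) in each saline fish, with the mean of 4 transgenic and of 5 wild-type fish as a line and transgenic fish 17 as an orange diamond left out of the mean. Fish 17 lies on the same side of the wild-type fish as the other transgenic fish for 6 genes. It helped to choose 3 of these 6, ENSORLG00000002401, ENSORLG00000009880 and ENSORLG00000019860, so its side there was favoured by that choice. For ENSORLG00000010054 it lies on the opposite side, at 889 CPM, a place that rests on its low TMM factor.

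The 182 genes were selected without fish 17, so its values there are a reading of 1 fish that had no part in the choice. The 5 wild-type fish it is set against did help to choose the genes. The comparison is therefore not independent of that choice. Of the 104 genes called higher, fish 17 lay above all 5 wild-type fish for 80 (76.9%) and below all of them for 19, against 36.6% above for all genes tested. Of the 78 genes called lower, it lay below all wild-type fish for 58 (74.4%) and above all of them for 15, against 53.7% below for all genes tested. The median log2 difference from the wild-type mean was 1.90 for the higher and -1.62 for the lower genes, and -0.54 over all genes. This library deviated widely for most genes, since only 9.7% of all genes tested fell within the wild-type range. Its deviation also varied with the abundance of a gene, and the lists differed in abundance. The median average log2 CPM was 4.31 for the higher genes, 2.69 for the lower genes and 3.82 over all genes tested. The shares over all genes are therefore not matched to the lists in abundance. The part of library composition in the shares of fish 17 was not tested.

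The same 182 genes were looked up in the fish of the other conditions, none of which was used to choose them. In untreated fish, where 7.92% of all genes were called, 30 of the 102 higher genes that were tested there were called higher (29.4%, against 4.81% of all genes) and 27 of 70 lower genes were called lower (38.6%, against 3.11%). In the opposite direction 0 of the higher and 3 of the lower genes were called. Under trametinib, where 2.84% of all genes were called, 26 of 104 were called higher (25%, against 1.76%) and 28 of 72 lower (38.9%, against 1.07%). Without the 1 trametinib library of low TMM factor (under 0.8), where 3.77% of all genes were called, the counts were 33 of 104 (31.7%, against 2.47%) and 30 of 72 (41.7%, against 1.29%). Under cisplatin they were 5 of 103 (4.85%, against 0.189%) and 25 of 72 (34.7%, against 0.713%). Without the 3 cisplatin libraries of low TMM factor these rose to 41 of 103 (39.8%, against 6.48%) and 47 of 72 (65.3%, against 8.23%). In DMSO, where 39 of 18383 genes were called in all (0.212%), they were 1 of 103 (0.971%, against 0.0218%) and 11 of 69 (15.9%, against 0.19%). Leaving out the 1 DMSO library of low TMM factor gave 1 of 104 (0.962%, against 0.0379%) and 11 of 69 (15.9%, against 0.233%). Of the 78 lower genes, 38 were called lower in none of the 4 conditions, 12 in 1, 12 in 2, 9 in 3 and 7 in all 4. Of the 104 higher genes, 58 were called higher in none, 30 in 1, 16 in 2 and 0 in more, with all libraries of these conditions in the fits. For both lists, a gene not tested in a condition was counted as not called there. The median log2 fold changes were smaller than in saline for the higher genes, at 0.45 in untreated fish, 0.22 in DMSO, 0.75 under cisplatin and 0.63 under trametinib. For the lower genes they were -0.60, -0.72, -1.06 and -0.82 in the same order. As the genes were chosen in saline, that choice favours a larger change there, and the smaller medians are no measure of the conditions. As shares of each list, the 57 calls common to saline and untreated fish were 31.3% of the 182 and 3.93% of the 1450, and the 12 common to saline and DMSO were 6.59% of the 182 and 30.8% of the 39.

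A score summarised the list in each fish: the mean log2(CPM + 0.5) of the 104 higher genes less that of the 78 lower genes. In saline, where the genes were chosen, the scores of transgenic fish 14, 15, 16 and 18 were 2.30, 2.28, 2.69 and 2.48, and those of the wild-type fish lay between -0.10 and 0.23. Fish 17, which was not used, scored 3.42. In each of the other 4 conditions every transgenic fish scored above every wild-type fish, with 1.37 to 1.80 against 0.25 to 0.59 in untreated fish and 1.54 to 1.88 against 0.36 to 1.00 in DMSO. Under cisplatin the ranges were 1.67 to 3.46 and 0.25 to 0.90, and under trametinib 1.29 to 2.34 and -0.07 to 0.44. The libraries of low TMM factor (under 0.8) had the highest scores of their groups, fish 17 among them. The others were transgenic fish 21 and 31 under cisplatin (3.46 and 3.02) and 63 under trametinib (2.34). Among wild-type fish they were 40 under cisplatin (0.90) and 47 in DMSO (1.00). The part of library composition in these scores was not tested. The gap between genotypes was widest in saline. As the genes were chosen there, that width is no measure of the conditions.

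**Figure D4:**
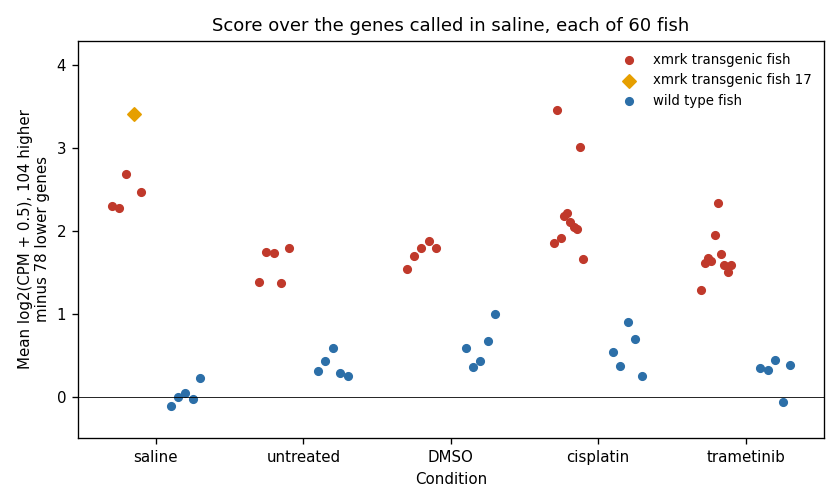
Score of each of the 60 fish, in log2 units, by condition and genotype; each point is 1 fish, and transgenic fish 17 is an orange diamond. Transgenic fish lie above the wild-type fish in each condition, with a lowest transgenic score of 1.29 and a highest wild-type score of 1.00 outside saline.

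Over all genes the shared direction varied with the condition. Of all genes tested in both comparisons, 65.9% had the same sign of genotype difference in saline without fish 17 as in untreated fish, 75% as under trametinib and 56.2% as under cisplatin. In DMSO it was 35.9%, so that the estimate had the opposite sign for most genes, nearly all of them not called there, while 66% of the higher and 81.2% of the lower saline genes kept their direction. Without the DMSO library of low TMM factor the share over all genes was 44.2%, and under cisplatin without 3 such libraries it was 47.3%. These shares count genes, which vary together, and carry no test.

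Whether the genotype difference itself changed between saline and ordinary housing was tested with an interaction term. Without fish 17, 84 of 18681 genes passed (0.45%). For 26 the difference between transgenic and wild-type fish was higher in saline than in untreated fish (0.139%), and for 58 it was lower (0.31%). With fish 17, 9 genes passed (0.0483%), 2 of them in the higher (0.0107%) and 7 in the lower direction (0.0376%), and all 9 were among the 84. Leaving out 1 fish moved the 84 to between 26, without wild-type untreated fish 68, and 278, without wild-type saline fish 37, and by over 1.5 times for every fish but transgenic untreated fish 75 and 77.

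ENSORLG00000020069 gave the largest change. In saline it stood at 8.86, 14.1, 10.4 and 11.6 CPM in transgenic fish 14, 15, 16 and 18, and at 330, 152, 248, 293 and 27.1 CPM in wild-type fish. In untreated fish it was 733, 551, 517, 901 and 686 CPM in transgenic and 365, 521, 372, 448 and 496 CPM in wild-type fish. The gene was lower in transgenic fish in saline (log2 fold change -4.22, adjusted p = 0.0275 by edgeR) and higher in them when untreated (0.62, adjusted p = 0.0417 by edgeR). The log2 difference between the genotype effects was -4.82 (SE 0.61, adjusted p = 0.00344 by edgeR). Fish 17, at 12.4 CPM, lay with the other transgenic fish. With it in the fit the interaction was -4.81 (adjusted p = 0.00192), but the difference within saline was no longer called (-4.19, adjusted p = 0.0689). ENSORLG00000010054, described above, passed in the same direction (-3.51, SE 0.74, adjusted p = 0.0466 by edgeR). Untreated transgenic fish held 74.2, 148, 65.9, 77.2 and 7.87 CPM of it and untreated wild-type fish 135 to 219 CPM. With fish 17 the value was 0.59 (adjusted p = 0.842 by edgeR). In DMSO, ENSORLG00000020069 was also low in transgenic fish, at 18.1 to 69.2 CPM, against 55.9 to 310 CPM in wild-type fish. Against DMSO neither gene passed without fish 17. Their log2 differences there were -2.52 and -1.69 (adjusted p = 0.141 and 0.265 by edgeR).

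In the other direction, ENSORLG00000013959 had in saline a mean of 113 CPM ± 15.2 (SD, n = 4) in the transgenic fish without fish 17, while the wild-type mean was 74.1 CPM ± 22.2 (SD, n = 5). The groups overlapped and the difference was not called (adjusted p = 0.128 by edgeR). In untreated fish it was lower in transgenic fish, at 141 CPM ± 24.8 against 370 CPM ± 110 (SD, n = 5 each), without overlap (adjusted p = 0.00280 by edgeR). The log2 difference was 2.02 (SE 0.29, adjusted p = 0.00453 by edgeR), and it passed under all 24 alternatives tried, as did that of ENSORLG00000020069. ENSORLG00000014926 was at 35.8 to 74.9 CPM in the 4 transgenic and at 9.71, 25.9, 8.89, 14.5 and 36.7 CPM in the wild-type saline fish, and at 0.278 to 1.88 and 2.61 to 4.49 CPM in untreated fish. Saline fish of either genotype were above all untreated fish. The log2 difference was 3.16 (SE 0.67, adjusted p = 0.0466 by edgeR), and with fish 17, at 132 CPM, it was 3.48 and not called (adjusted p = 0.102). The high place of fish 17 rests on its low TMM factor, as it had 1169 counts in a total of 38079639. Relative to library totals alone, fish 17 lay below the other transgenic saline fish and within the wild-type range. The call of ENSORLG00000014926 and that of ENSORLG00000010054 held in 6 and 5 of the 24 alternatives. In DMSO, wild-type fish held 82.8 CPM ± 28.7 of ENSORLG00000013959 (SD, n = 5), also below untreated wild-type fish. Against DMSO neither ENSORLG00000013959 nor ENSORLG00000014926 passed without fish 17. Their log2 differences there were 0.096 and 2.38 (adjusted p = 0.885 and 0.141 by edgeR).

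The same test against DMSO passed 2 of 18693 genes without fish 17 (0.0107%), and 0 of 18639 with it, where 5080 genes had an unadjusted p under 0.05. Without fish 17, 4988 genes did, 2779 of them with a higher and 2209 with a lower genotype difference in saline. DESeq2 called 374 genes and limma-voom 0. ENSORLG00000008716 stood at 3.53, 3.32, 2.47 and 2.67 CPM in transgenic and 7.19, 5.76, 8.04, 8.26 and 5.59 CPM in wild-type saline fish, against 9.02 CPM ± 1.57 and 6.42 CPM ± 1.57 (SD, n = 5 each) in DMSO. In saline every transgenic fish was below every wild-type fish, fish 17 included at 0.113 CPM (1 count), and in DMSO the groups overlapped. The log2 difference was -1.70 (SE 0.27, adjusted p = 0.0490 by edgeR). ENSORLG00000002824, a gene of low level, stood at 0.150, 0.170, 0.174 and 0.177 CPM in transgenic saline fish and at 0.590 CPM ± 0.109 (SD, n = 5) in wild-type ones. In DMSO it was 1.17 CPM ± 0.382 and 0.650 CPM ± 0.196 (SD, n = 5 each), with a log2 difference of -2.64 (SE 0.40, adjusted p = 0.0490 by edgeR). Both calls were lost in most alternatives, among them limma-voom and leaving out any 1 of the 4 transgenic saline fish (adjusted p up to 0.196). With fish 17 in the fit the log2 differences were -1.95 for ENSORLG00000008716 and -2.77 for ENSORLG00000002824 (adjusted p = 0.123 for both).

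**Figure D5:**
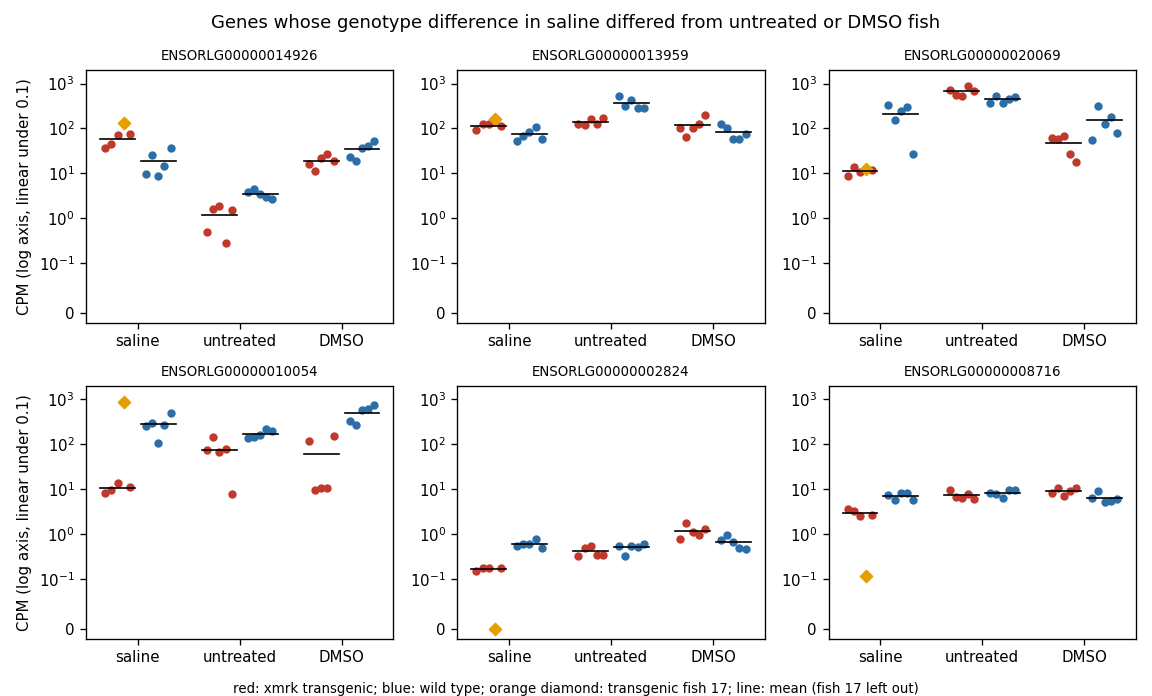
Levels in CPM (log axis, linear under 0.1) of 6 named genes whose genotype difference in saline differed from that in untreated or DMSO fish. They were taken by the naming rule from the 84 genes called against untreated fish and the 2 called against DMSO. Points are fish, lines are group means without fish 17, which is the orange diamond. ENSORLG00000020069 lies at 8.86 to 14.1 CPM in transgenic saline fish and at 517 to 901 CPM in untreated transgenic fish.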

How the data were processed

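The table deposited by the authors holds unnormalised counts of reads on each gene in 60 libraries, and every column matched a sample by its title. TopHat2 2.2.4 and featureCounts are named, per the submitters' processing notes. Build, annotation, strandedness and the handling of multiply mapped reads: not given in the sources used here. Overlapping genes and near-identical copies therefore have uncertain counts.

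The tests used edgeR 4.0.16 under R 4.3.3, with filterByExpr, TMM factors, robust dispersions and the quasi-likelihood F test with Benjamini-Hochberg adjustment. Only the groups compared entered a fit, so that the cisplatin libraries of low TMM factor stayed out of the dispersion. Standard errors were taken from the F statistic. DESeq2 1.42.0 and limma 3.58.1 served as alternatives, and the procedure was tested on simulated data. A chi-square of counts per gene was at least 64.6 for every pair of libraries within the saline groups, so none was taken as a duplicate.

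The members, lists, tests and the exclusion of fish 17 were chosen with earlier results of these data known. Without gene symbols, the naming rule took at most 2 genes per direction and comparison: called genes of largest change whose average log2 CPM reached 1, with no overlap between groups (not applied to interactions), or all genes where 5 or fewer were called.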

Additional observations from a re-analysis of the deposited data

Results flagged for a closer look

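A single far value was looked for in 32 sets, each 1 library measure or gene in 1 group of saline fish, and found in 6. Chance gives about 1 in 20 for independent sets, and these sets share the same fish. Most of the genes were also named from fits without fish 17, where a small spread among the other transgenic fish favours a call. A far value of fish 17 is more likely for such genes, so the rate does not apply to them. Of the 6, 5 were transgenic fish 17: 17788 genes detected, 645 CPM of ENSORLG00000007187, 889 CPM of ENSORLG00000010054, 0.452 CPM of ENSORLG00000019887 and 0 CPM of ENSORLG00000002824. The other was transgenic fish 18, with 0.0197 CPM (1 count) of ENSORLG00000019860, where the other transgenic fish had none; a lone count among zeros meets the criterion by construction. The low TMM factor of fish 17 moves with its 5 values, and its part in them was not tested.

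By an interaction term, genotype differences in saline without fish 17 differed from those in untreated fish for ENSORLG00000014926 (3.16 on the log2 scale), ENSORLG00000013959 (2.02), ENSORLG00000020069 (-4.82) and ENSORLG00000010054 (-3.51), and from those in DMSO for ENSORLG00000002824 (-2.64) and ENSORLG00000008716 (-1.70).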

How the results depend on the processing

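With all 10 fish, the 3 calls became 383 with DESeq2, 8 with limma-voom, 2620 with sample quality weights, 52 with the cisplatin groups in the fit and 3739 (3190 higher and 549 lower) with all 10 groups in it. With library totals alone they became 5 (1 higher and 4 lower), and the median log2 change of all genes moved from -0.05 to -0.31. Leaving out 1 fish gave 0 to 182. Without fish 17, the 182 became 1956 with DESeq2, 2125 with sample quality weights, 93 with library totals alone, 47 (10 higher and 37 lower) with the cisplatin groups and 106 (45 and 61) with all groups, and 9 to 625 when 1 more fish was left out. Of the 182, 180 were also called with sample quality weights and 182 with DESeq2. The count moved less with plain limma-voom (209), RLE size factors in place of TMM factors (183), no filter on low counts (163) and a filter of CPM above 1 in 5 libraries (173). These kept 168, 177, 163 and 160 of the 182. The 84 interaction calls against untreated fish became 572 with DESeq2, 9 with fish 17, and 26 to 278 when 1 fish was left out. The 2 against DMSO became 374, 0 and 0 to 6 under the same changes, and 0 with limma-voom. With fish 17 the interaction of ENSORLG00000010054 turned to 0.59. The cause of these shifts was not tested.

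When 1 fish was left out of the choice of genes, the share with the same sign ranged over 76.3% to 100% in untreated, 61.5% to 100% in DMSO, 78% to 100% under cisplatin and 84.6% to 100% under trametinib. The share called in the same direction ranged over 20.7% to 66.7%, 2.11% to 16.1%, 6.63% to 66.7% and 19.8% to 66.7%. The smallest of these lists, without transgenic fish 18, held 9 genes, so its shares rest on few genes. Without libraries of low TMM factor the same-sign share in DMSO was 82.1% (72.1% with them) and the called share under cisplatin 50.3% (17.1% with them). Leaving out 1 fish moved the difference between genotypes in total counts over -4491950 to 4111580, in genes detected over -387.4 to 5.6, in the TMM factor over -0.285 to -0.0516 (exact permutation p = 0.0476 without transgenic fish 14) and in the share of the 10 most abundant genes over 0.0914 to 0.886 percentage points. No paired analysis was possible because no fish number occurs in more than 1 group. Low counts limit ENSORLG00000019860 and ENSORLG00000002824.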

Other observations

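A set of abundant genes was far lower in most transgenic saline fish without being called. Without fish 17, 21 genes had an average log2 CPM over 6 and a log2 fold change under -3, and 0 genes passed the same limits in the other direction. Of the 21, 3 were called, and the other 18 had log2 fold changes of -5.15 to -3.56 with adjusted p of 0.0542 to 0.129 by edgeR. They were chosen after their values were seen, so their difference is a description. Their summed level was 1013, 107, 667 and 1456 CPM in transgenic fish 14, 15, 16 and 18, and 16075, 18225, 32446 and 27418 CPM in wild-type fish 33 to 36. Wild-type fish 37 had 931 CPM, within the range of the transgenic fish. Transgenic fish 17 had 22579 CPM, within that of the wild-type fish, but this value rests on its low TMM factor. As a share of raw counts the sum was 0.525% in fish 17. That was above the 0.0111% to 0.149% of the other transgenic fish and below the 1.79% to 3.31% of wild-type fish 33 to 36. In DMSO the same sum was 36425 and 27485 CPM in wild-type fish 43 and 44, 1350 to 3090 CPM in the other 3 wild-type fish, and 950.5 to 7384 CPM in transgenic fish. In untreated fish it was 1201 to 2630 CPM in wild-type and 774 to 2231 CPM in transgenic fish. Under cisplatin the wild-type and transgenic ranges were 1301 to 3413 and 189 to 3606 CPM. Under trametinib they were 4218 to 22769 and 302 to 9271 CPM. High and low fish thus occurred within the wild type.

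ENSORLG00000007271, which was chosen after its values were seen as a gene of strong variation between fish, divided the saline fish differently. It stood at 30.3 to 963 CPM in transgenic fish 14, 16 and 17, the highest being fish 17, and at 64.3 and 86.1 CPM in wild-type fish 33 and 34, and at 0.118 to 0.729 CPM in the other 5 fish, which belong to both genotypes.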
